A study of Mus musculus with 6 samples.

Results

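The mitochondrial carrier family Slc25 was examined in iWAT, the inguinal white fat of mice, with and without an *Hlx* transgene. Its members were taken as every row of the deposited gene table whose symbol begins with Slc25a, with *Slc25a20* left out, and 43 of the 19445 loci met this rule. The rule used names and no measured value. Of the 43 loci, 35 had a mean over 1 FPKM in at least 1 genotype and were tested, and all 35 had a mean over 1 FPKM in both genotypes. The other 8 were under this minimum and are described at the end by their values.

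RNA-Seq was done on iWAT of 3 *Hlx* transgenic mice and 3 wild-type littermates, 12 weeks old and labelled male, with 1 library per mouse and no treatment in either group. The transgene placed the cDNA of *Hlx*, a homeobox transcription factor gene, behind the *aP2* (*Fabp4*) promoter, so that its expression follows that promoter, and the mice were backcrossed to C57BL/6 after injection of C57BL/6 and SJL hybrid embryos. These samples address how far *Hlx* changes the RNA of white fat. *Hlx* (chr1:184727145-184732493, mm10) had 109.7, 79.6 and 99.5 FPKM in transgenic mice 1, 2 and 3 and 6.88, 7.35 and 8.14 FPKM in wild-type mice 1, 2 and 3, a log2 fold change of 3.51 (SE 0.13, limma adjusted p = 0.000106), and the values do not part the transgene from the endogenous gene. The exact permutation test over mice gave p = 0.1 (two-sided) for *Hlx*, the smallest value that 2 groups of 3 allow.

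The labels give male mice, but *Xist*, the RNA of the inactive X chromosome in females, was between 20.2 and 33.6 FPKM in all 6 libraries, and none of 28 loci of the Y chromosome was above 0 in any of them. Both genotypes shared this pattern. Values are FPKM, in which the reads of a gene are divided by its transcript length and by the mapped reads of the library, and they summed to between 466059 and 542096 per mouse. Absolute depth is unknown, and the relative depth read from the spacing of low values ran from 0.692 in transgenic mouse 3 to 1.414 in wild-type mouse 2, with wild-type mouse 3 set to 1. Fold changes are differences of log2(FPKM + 1), which understate the change of low genes, and calls use an adjusted p under 0.05. In bulk tissue, fewer cells of a type and less RNA per cell cannot be told apart.

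Members of the Slc25 family are small proteins of, for the most part, the inner mitochondrial membrane. They pass metabolites, nucleotides, cofactors, phosphate and protons across a membrane that is otherwise closed to them, and thereby join the reactions of the matrix to those of the cytosol. In fat, citrate leaves the matrix by this route for fatty acid synthesis, and in brown fat the uncoupling protein Ucp1, which has the same fold but another symbol, lets protons return without making ATP. The members differ in what they carry, and the results are ordered below by substrate.

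Of the 35 tested members, 12 were higher and 1 was lower in the transgenic mice (limma, 3 mice of each genotype), together 13 where 18.6% of all loci were called in either direction. The 12 are 34.3% of the tested members, where 11.6% of all 11692 tested loci were called higher, and the 1 lower member is 2.86%, where 7.03% of all loci were called lower. The median log2 fold change was 0.30 over the members and -0.01 over all loci, and 27 of the 35 members, or 77.1%, had a fold change above 0, against 48.4% of all loci. Lowest and highest values of the genotypes did not overlap for 18 members that were higher, or 51.4%, and 2 that were lower, or 5.71%, where these shares were 22.8% and 20.1% of all loci. All 13 called members were without overlap between the genotypes. A ratio of mean FPKM of at least 2 was found for 3 of the 12 higher members, *Slc25a42*, *Slc25a32* and *Slc25a48*, and the other 9 were under 2. The count of higher members fell to 7 without transgenic mouse 3 and to 8 without transgenic mouse 1 or without wild-type mouse 3. Among members with a mean over 100 FPKM, 3 of 9 were higher (29.6% of all such loci), from 10 to 100 FPKM 5 of 11 (13.3%), and up to 10 FPKM 4 of 15 (7.58%).

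**Figure D1:**
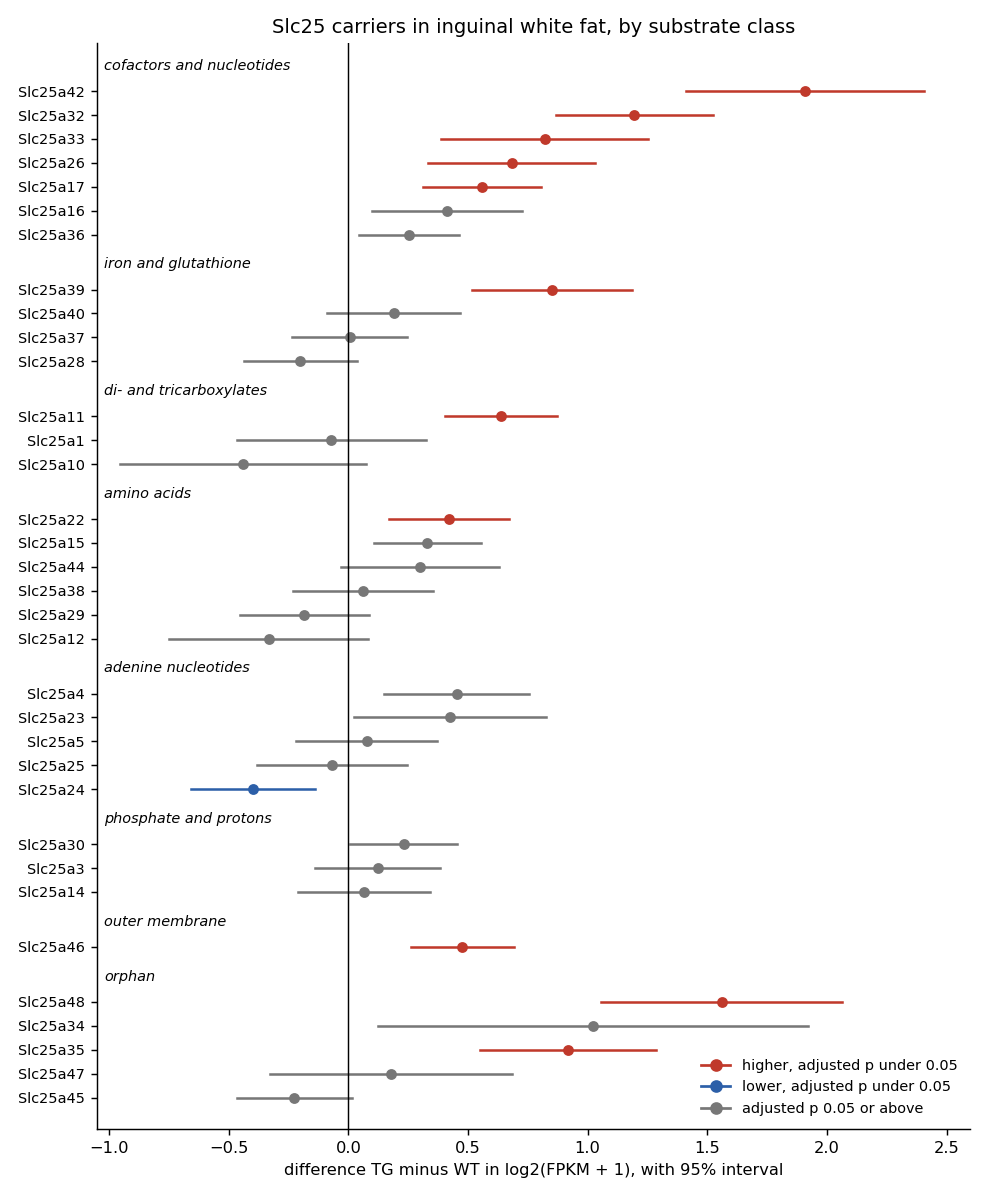
Difference of transgenic (TG) minus wild-type (WT) mice in log2(FPKM + 1) with its 95% confidence interval for 34 tested members (horizontal axis), grouped by substrate (vertical axis), n = 3 mice per genotype. Red marks 11 members called higher, blue the 1 called lower and grey the 22 not called, and all 7 drawn members of the cofactor and nucleotide group lie to the right of 0.

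Most carriers of cofactors and nucleotides rose. Of 8 members, all tested, 6 were higher (75.0%, beside 11.6% of all loci) and none was lower (beside 7.03% of all loci). The median over the group was 0.64 on the log2 scale. All 8 were higher without overlap between the genotypes, as were 22.8% of all loci. *Slc25a42*, which brings coenzyme A into the matrix, had the largest log2 fold change of the 35 members. Its promoter and those of *Slc25a39* and *Slc25a48* are shown as the 250 bases before the RefSeq start (GRCm38.p6), 5′ to 3′ on the strand of the gene. These 3 were chosen as higher members that differ in the boxes their promoters hold. *Slc25a42* and *Slc25a39* are of different substrate groups, and *Slc25a48* is listed here without an assigned substrate. Capitals mark, on either strand, the box named by its letters CCAAT, the GC box with the letters GGGCGG and the nuclear receptor half-site with the letters AGGTCA.
Slc25a42, chr8:70212282-70212531, minus strand: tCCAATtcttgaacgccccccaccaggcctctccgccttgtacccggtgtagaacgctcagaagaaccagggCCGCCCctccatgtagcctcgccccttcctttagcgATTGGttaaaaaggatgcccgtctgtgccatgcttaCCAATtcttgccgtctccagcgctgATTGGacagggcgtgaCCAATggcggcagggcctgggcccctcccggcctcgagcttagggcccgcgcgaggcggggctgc
Slc25a39, chr11:102407518-102407767, minus strand: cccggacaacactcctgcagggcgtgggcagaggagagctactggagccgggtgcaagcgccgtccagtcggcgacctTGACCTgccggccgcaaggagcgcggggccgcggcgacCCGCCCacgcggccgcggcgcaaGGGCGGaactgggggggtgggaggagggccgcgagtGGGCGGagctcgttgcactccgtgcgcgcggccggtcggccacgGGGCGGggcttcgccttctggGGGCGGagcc
Slc25a48, chr13:56438105-56438354, plus strand: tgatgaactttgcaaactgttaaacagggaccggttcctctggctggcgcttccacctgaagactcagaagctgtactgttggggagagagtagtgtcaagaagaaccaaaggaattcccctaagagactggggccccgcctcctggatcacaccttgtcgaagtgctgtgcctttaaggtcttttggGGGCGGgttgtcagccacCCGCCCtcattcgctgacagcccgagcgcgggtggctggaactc

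*Slc25a42* (chr8:70184218-70212296) had 49.4, 27.3 and 38.1 FPKM in transgenic mice 1, 2 and 3 and 10.9, 8.54 and 8.29 FPKM in the wild-type mice. The lowest transgenic mouse was above the highest wild-type mouse. Means were 38.3 ± 11.0 and 9.24 ± 1.44 FPKM (SD, n = 3 each), a 4.14-fold ratio, and the log2 fold change was 1.91 (SE 0.21, limma adjusted p = 0.00203). *Slc25a32* (chr15:39091271-39112739), the carrier of folate and FAD, had 15.01, 11.2 and 13.1 FPKM in transgenic and 4.53, 6.18 and 4.77 FPKM in wild-type mice. Again no value of one genotype reached the other, and the log2 fold change was 1.20 (SE 0.14, limma adjusted p = 0.00243, 2.54-fold). *Slc25a33* (chr4:149744036-149774267), which carries pyrimidine nucleotides, had 6.42, 5.17 and 6.43 FPKM in transgenic and 3.42, 3.68 and 1.99 FPKM in wild-type mice, and its log2 fold change was 0.82 (SE 0.18, limma adjusted p = 0.0242). Wild-type mouse 3 was the lowest of the 6, and the call was lost without transgenic mouse 1 (adjusted p = 0.0714) or transgenic mouse 3 (adjusted p = 0.0804).

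*Slc25a26* (chr6:94500274-94700205), which imports S-adenosylmethionine, the methyl donor, had 12.0, 8.37 and 10.5 FPKM in transgenic and 6.60, 6.42 and 5.002 FPKM in wild-type mice. The genotypes did not overlap, and the log2 fold change was 0.68 (SE 0.15, limma adjusted p = 0.0218). This call was lost without transgenic mouse 1 (adjusted p = 0.0571), transgenic mouse 3 (0.0720) or wild-type mouse 3 (0.0674). Its locus overlaps *Lrig1*, whose own log2 fold change was -0.31 (limma adjusted p = 0.0935). *Slc25a17* (chr15:81318921-81360765), a peroxisomal carrier of cofactors, had 45.5, 46.2 and 41.9 FPKM in transgenic and 33.6, 30.2 and 26.3 FPKM in wild-type mice. Its 3 transgenic values lay close together, and the log2 fold change was 0.56 (SE 0.10, limma adjusted p = 0.0131).

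Not called were *Slc25a16*, a carrier related to coenzyme A transport, and *Slc25a36*, the paralogue of *Slc25a33*, with log2 fold changes of 0.41 (limma adjusted p = 0.0723) and 0.25 (limma adjusted p = 0.0875). *Slc25a16* was called higher without wild-type mouse 1 (adjusted p = 0.0467).

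Of the 4 carriers of iron and glutathione, 1 was higher and none was lower. *Slc25a39* (chr11:102393403-102407521), which imports glutathione, the thiol antioxidant, was the most abundant member called higher, with 283, 265 and 224 FPKM in transgenic and 163, 143 and 121 FPKM in wild-type mice. Every transgenic mouse was above every wild-type mouse, at 257 ± 30.1 against 143 ± 20.9 FPKM (SD, n = 3 each), with a log2 fold change of 0.85 (SE 0.14, limma adjusted p = 0.00890). Its locus overlaps *Rundc3a*, which was between 0.177 and 1.05 FPKM. Its relative *Slc25a40* was low, at 3.05 ± 0.417 and 2.54 ± 0.291 FPKM (SD, n = 3 each), with a log2 fold change of 0.19 (limma adjusted p = 0.286). The ratio of *Slc25a39* to *Slc25a40* was 84.8 ± 6.98 in transgenic and 57.0 ± 14.5 in wild-type mice (SD, n = 3 each). The mitoferrins, which bring iron into the matrix, were not called. *Slc25a28* (mitoferrin 2) had a log2 fold change of -0.20 (limma adjusted p = 0.192) and *Slc25a37* (mitoferrin 1) one of 0.00 (limma adjusted p = 0.975), with a 95% interval from -0.23 to 0.24.

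Of the 3 tested carriers of di- and tricarboxylates, 1 was higher (33.3%, beside 11.6% of all loci) and none was lower (beside 7.03%). *Slc25a11* (chr11:70642328-70647039), the oxoglutarate/malate carrier of the malate-aspartate shuttle, had 71.5, 64.9 and 65.4 FPKM in transgenic and 45.5, 45.7 and 37.8 FPKM in wild-type mice. Its genotypes did not overlap, and the log2 fold change was 0.64 (SE 0.10, limma adjusted p = 0.00701, 1.56-fold). *Slc25a1* (chr16:17921473-17928703), the citrate carrier that feeds fatty acid synthesis, was the most abundant member in every mouse, with 948, 1097 and 803 FPKM in transgenic and 1000.2, 1115 and 869 FPKM in wild-type mice. The genotypes overlapped, and the log2 fold change was -0.07 (limma adjusted p = 0.785) with a 95% interval from -0.47 to 0.32. It changed sign without transgenic mouse 3 (0.04) and without wild-type mouse 2 (0.01). *Slc25a10*, the dicarboxylate carrier, had a log2 fold change of -0.44 (SE 0.22, limma adjusted p = 0.192), and its transgenic values of 125, 124 and 78.0 FPKM overlapped the wild-type values of 152, 171 and 117 FPKM. The fold change was -0.22 without transgenic mouse 3, -0.65 after quantile normalization and -0.66 with quality weights, and was not called in any of these. With a block for replicate number, *Slc25a10* was called lower (-0.44, limma adjusted p = 0.0397).

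Among carriers of amino acids, 1 of 6 tested members was higher (16.7%, beside 11.6% of all loci) and none was lower (beside 7.03%). *Slc25a22* (chr7:141429749-141437874), a glutamate carrier, had 61.7, 63.1 and 61.1 FPKM in transgenic and 51.8, 47.3 and 39.8 FPKM in wild-type mice, a log2 fold change of 0.42 (SE 0.11, limma adjusted p = 0.0364). The genotypes did not overlap, but the call was lost when any mouse other than wild-type mouse 1 was left out, at adjusted p from 0.0748 to 0.0946. *Slc25a15*, the ornithine and citrulline carrier, at 0.33 (limma adjusted p = 0.0533), and *Slc25a44*, the carrier of branched-chain amino acids, at 0.30 (limma adjusted p = 0.171), were not called. The aspartate/glutamate carrier *Slc25a12* had 4.48, 7.97 and 5.71 FPKM in transgenic and 7.16, 8.41 and 7.59 FPKM in wild-type mice. Transgenic mouse 2 lay within the wild-type range, and the log2 fold change was -0.33 (limma adjusted p = 0.217), -0.52 and called lower without that mouse (adjusted p = 0.0390), and -0.17 without transgenic mouse 1 (adjusted p = 0.484). Its paralogue *Slc25a13* was under the minimum, at no more than 0.706 FPKM. *Slc25a29*, which carries basic amino acids, and *Slc25a38*, the glycine carrier of heme synthesis, had log2 fold changes of -0.18 and 0.06 (limma adjusted p = 0.282 and 0.751).

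None of the 5 tested carriers of adenine nucleotides was called higher, where 11.6% of all loci were. *Slc25a4* (chr8:46207341-46211009), the ADP/ATP carrier that prevails in heart and muscle, had 438, 353 and 358 FPKM in transgenic and 290.0, 297 and 250.2 FPKM in wild-type mice. Every transgenic mouse was above every wild-type mouse, and the log2 fold change of 0.45 (SE 0.13) was at the edge of the threshold (limma adjusted p = 0.0506). Over the other settings its adjusted p ran from 0.0436 to 0.328, the highest after quantile normalization, where the log2 fold change was 0.14. The broadly expressed isoform *Slc25a5* (chrX:36795555-36798808) had 240.3, 217 and 221 FPKM in transgenic and 251, 205 and 191 FPKM in wild-type mice, which overlap. Its log2 fold change was 0.08 (limma adjusted p = 0.691), with a 95% interval from -0.22 to 0.37, and -0.25 after quantile normalization. The ratio of *Slc25a4* to *Slc25a5* was 1.82, 1.62 and 1.62 in transgenic and 1.15, 1.45 and 1.31 in wild-type mice. The isoforms are alike in sequence, so the split of shared reads between them and their copies is uncertain. The ratio did not overlap between genotypes, and the exact permutation test gave p = 0.1, the smallest it can give (0.175 after Benjamini-Hochberg adjustment over 7 ratios of paralogues).

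Markers of skeletal muscle, a tissue in which *Slc25a4* prevails, were read beside it. The summed level of 10 muscle markers was 250.0, 986 and 306 FPKM in transgenic mice 1, 2 and 3 and 208, 374 and 293 FPKM in the wild-type mice, and *Myh4* was at 0 in at least 1 mouse. Of the 10 markers, 9 had a log2 fold change above 0, with a median of 1.94, and none was called. Transgenic mouse 2 had the highest muscle sum and also the lowest *Slc25a4* of the transgenic mice, at 353 FPKM. Without it the log2 fold change of *Slc25a4* was 0.51 (limma adjusted p = 0.0600), and leaving out the lowest transgenic value raises that fold change in any case. The part of muscle RNA in the *Slc25a4* values was not tested.

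*Slc25a24* (chr3:109123149-109168409), a carrier that exchanges ATP-Mg for phosphate under control of calcium, was the only member called lower. It had 4.32, 5.90 and 5.37 FPKM in transgenic and 7.14, 7.08 and 7.15 FPKM in wild-type mice, a log2 fold change of -0.40 (SE 0.11, limma adjusted p = 0.0459). The genotypes did not overlap and the wild-type values were nearly equal, but the call was lost when any mouse other than transgenic mouse 2 was left out, at adjusted p from 0.0766 to 0.121. Its paralogue *Slc25a23* had 184, 123 and 131 FPKM in transgenic and 121, 105 and 96.3 FPKM in wild-type mice, with a log2 fold change of 0.42 (SE 0.17, limma adjusted p = 0.121). The ratio of *Slc25a23* to *Slc25a24* was 29.3 ± 11.7 in transgenic and 15.1 ± 1.73 in wild-type mice (SD, n = 3 each; exact permutation p = 0.1, adjusted 0.175), without overlap. The third paralogue, *Slc25a25*, had a log2 fold change of -0.07 (limma adjusted p = 0.742).

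Neither the phosphate carrier nor the relatives of the uncoupling proteins were called. *Slc25a3* (chr10:91116578-91123963), which brings in the phosphate for ATP synthesis, had 206, 218 and 196 FPKM in transgenic and 206, 199.6 and 167 FPKM in wild-type mice. Its genotypes overlapped, with a log2 fold change of 0.12 (limma adjusted p = 0.455) and a 95% interval from -0.14 to 0.38, and -0.18 after quantile normalization. *Slc25a30* and *Slc25a14*, which resemble uncoupling proteins, had log2 fold changes of 0.23 (limma adjusted p = 0.131) and 0.07 (limma adjusted p = 0.714).

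*Slc25a46* (chr18:31580168-31609902) is a family member of the outer membrane with a part in the shape of mitochondria. It had 30.4, 24.8 and 28.8 FPKM in transgenic and 19.8, 20.2 and 19.3 FPKM in wild-type mice, without overlap, and a log2 fold change of 0.48 (SE 0.09, limma adjusted p = 0.0143). The call was lost without transgenic mouse 3 (adjusted p = 0.0575) or wild-type mouse 3 (0.0535).

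Of the 5 tested members listed here without an assigned substrate, 2 were higher. *Slc25a48* (chr13:56438355-56472363) had 7.57, 5.32 and 5.54 FPKM in transgenic and 1.21, 2.23 and 0.932 FPKM in wild-type mice. The lowest transgenic value was above the highest wild-type value, and the log2 fold change was 1.56 (SE 0.21, limma adjusted p = 0.00420), with a 4.21-fold ratio of means. *Slc25a35* (chr11:68967451-68976986) had 176, 124 and 143 FPKM in transgenic and 71.8, 89.7 and 70.0 FPKM in wild-type mice, a log2 fold change of 0.92 (SE 0.16, limma adjusted p = 0.00941). Its locus overlaps *Rangrf*, which was far lower, at 7.79 ± 1.81 and 4.04 ± 0.602 FPKM (SD, n = 3 each), and was also called higher (log2 fold change 0.79, limma adjusted p = 0.0196). For overlapping loci the reads cannot be parted here, since whether the counting used strand is not given in the sources used here. *Slc25a34* had 4.85, 4.12 and 3.15 FPKM in transgenic and 3.27, 0.384 and 1.51 FPKM in wild-type mice, a wide spread, and its log2 fold change of 1.02 (SE 0.38) was not called (limma adjusted p = 0.103) except without wild-type mouse 1 (1.42, adjusted p = 0.0284), and was 0.61 without wild-type mouse 2 (adjusted p = 0.176). *Slc25a45* had a log2 fold change of -0.23 (limma adjusted p = 0.157). *Slc25a47* shares its row with *Mir345* and had one of 0.18 (limma adjusted p = 0.583), 0.43 and called higher without transgenic mouse 2 (adjusted p = 0.0421), and 0.02 without transgenic mouse 1 (adjusted p = 0.962).

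**Figure D2:**
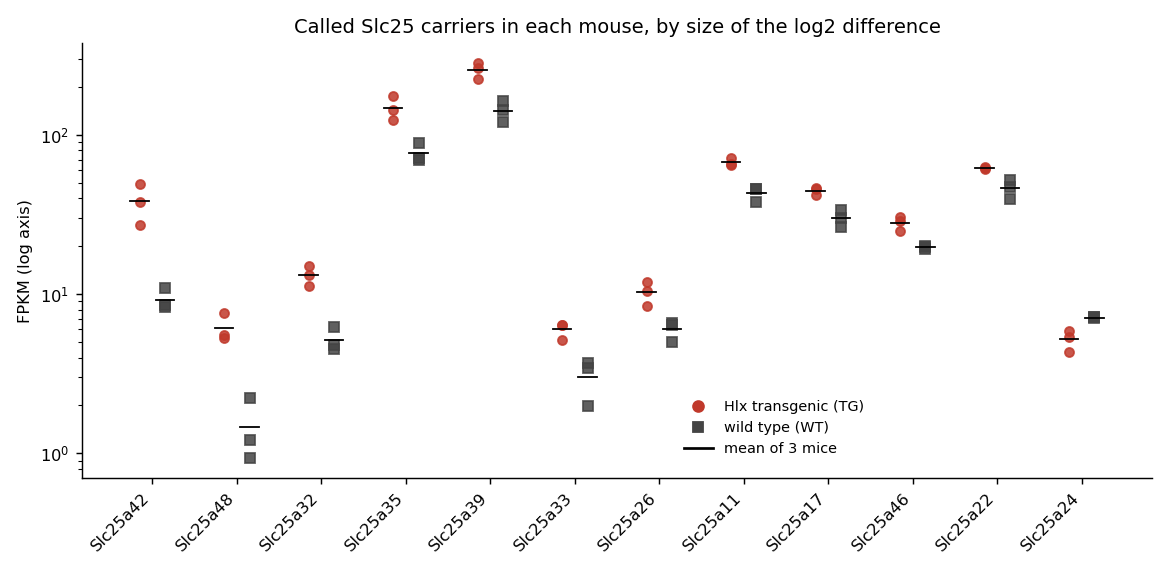
FPKM on a log axis for 12 called members (horizontal axis, by size of the log2 difference) in each transgenic mouse (red circles) and each wild-type mouse (grey squares), with a bar at the mean of 3 mice. The genotypes do not overlap for any of the 12, and Slc25a24 at the right is the member with lower transgenic values.

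The abundance of the family rested on few members. The 6 with the highest mean, among them *Slc25a1*, *Slc25a4*, *Slc25a5*, *Slc25a39* and *Slc25a3*, made up between 70.7% and 74.5% of the summed member FPKM in transgenic and between 74.6% and 74.9% in wild-type mice. *Slc25a1* alone held 28.6%, 35.1% and 28.9% of the sum in transgenic and 36.5%, 39.7% and 37.9% in wild-type mice. Its share was lower in every transgenic than in every wild-type mouse while its own level overlapped between them. The share of *Slc25a39* was 8.54%, 8.47% and 8.07% in transgenic and 5.95%, 5.11% and 5.30% in wild-type mice. The summed level was 3311, 3130.5 and 2778 FPKM in transgenic and 2740.1, 2808 and 2289 FPKM in wild-type mice, so that transgenic mouse 3 lay below wild-type mouse 2.

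**Figure D3:**
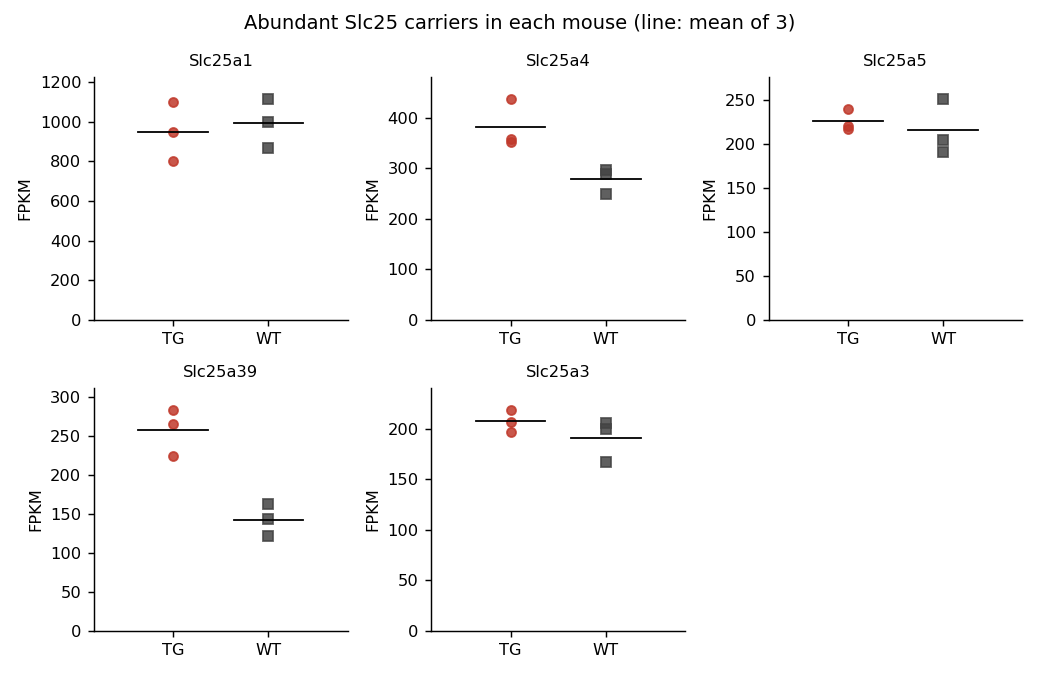
FPKM (linear axes from 0) of 5 abundant members in each transgenic (TG, red circles) and wild-type (WT, grey squares) mouse, with a line at the mean of 3. Slc25a39 is higher in every transgenic mouse and called, Slc25a4 is higher in every transgenic mouse but not called, and Slc25a1, Slc25a5 and Slc25a3 overlap.

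Paralogues that carry the same substrate were set side by side. The ratio of *Slc25a33* to *Slc25a36* was 0.413 ± 0.0478 in transgenic and 0.248 ± 0.0597 in wild-type mice (SD, n = 3 each), and this ratio and that of *Slc25a39* to *Slc25a40* did not overlap between genotypes (exact permutation p = 0.1 each, adjusted 0.175). The ratios of *Slc25a23* to *Slc25a25*, *Slc25a28* to *Slc25a37* and *Slc25a12* to *Slc25a13* gave exact permutation p = 0.2, 0.5 and 0.9 (adjusted 0.28, 0.583 and 0.9). The ADP/ATP carrier of germ cells, *Slc25a31*, was at 0 in 3 mice and at no more than 0.0549 FPKM in the others.

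Transporters of mitochondria that carry other symbols, such as uncoupling proteins, porins and sideroflexins, were read beside the Slc25 members. The list includes carriers of the same fold, such as the uncoupling proteins, so it is not a set outside the family. Of 21 such genes, 11 were higher (52.4%, beside 11.6% of all loci) and 2 were lower (9.52%, beside 7.03% of all loci), and their median was 0.45 on the log2 scale. The 6 with the lowest adjusted p were *Ucp1* (4.12), *Letm1* (1.03), *Ucp3* (1.27), *Sfxn5* (0.69), *Vdac1* (0.82) and *Abcb8* (0.77). The 2 lower ones were *Sfxn3* (-0.47, limma adjusted p = 0.0265) and *Ccdc109b* (-0.73, limma adjusted p = 0.0331). Of 12 enzymes of metabolite shuttles and of citrate and malate metabolism, 8 were higher (66.7%, beside 11.6% of all loci) and none was lower. Their median was 0.95. The higher ones include *Cs* (1.12), which makes citrate, *Gpd2* (1.78) and *Gpd1* (1.46) of the glycerol phosphate shuttle, and *Mdh2* (1.01) and *Idh2* (1.13) of the matrix. Of the malate-aspartate shuttle, *Got1* (0.18) and *Got2* (0.06) were not called, while *Mdh1* (0.69) and *Mdh2* (1.01) were called higher. Also not called were *Idh1* (0.31) and *Me1* (0.21). Among 82 tested subunits of the respiratory chain and ATP synthase, chosen by symbol, 69 were higher (84.1%) and none was lower. The median of these subunits was 0.95 on the log2 scale, beside 0.30 for the Slc25 members. Whether these lists differ from the Slc25 members was not tested. Among genes with a present Slc25a symbol, the rule does not match the older symbols *Mcart1*, for the NAD carrier *Slc25a51*, and *Mcart6*, for *Slc25a53*. Both were added after their values were seen. *Mcart6* had a log2 fold change of -0.04 (limma adjusted p = 0.884). *Mcart1* had 68.1, 59.7 and 70.7 FPKM in transgenic and 29.7, 27.0 and 27.4 FPKM in wild-type mice, a log2 fold change of 1.21 (SE 0.09, limma adjusted p = 0.000665).

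**Figure D4:**
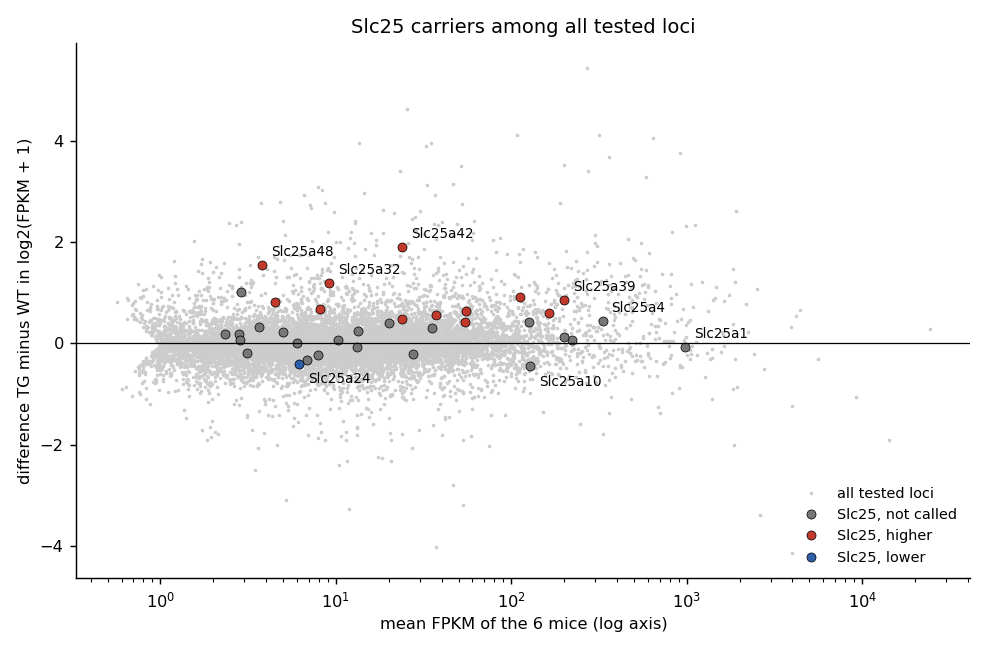
Difference of transgenic minus wild-type mice in log2(FPKM + 1) against the mean FPKM of the 6 mice (log axis) for all 11692 tested loci (light grey) and the 35 tested Slc25 members (large points; red higher, blue lower, dark grey not called). The called members have a mean between 3.80 and 200.01 FPKM, and Slc25a1, at the right of the family, lies near 0.

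Markers of some cell types differed between the genotypes beside these results, where 11.6% of all loci were called higher and 7.03% lower. Of 7 brown adipocyte markers, 6 were higher (85.7%), with a summed level of 6127 to 7930 FPKM in transgenic and 611 to 1051 FPKM in wild-type mice. The other had a log2 fold change of -0.37 and was not called. Of 6 tested macrophage markers 4 were lower (66.7%), at 356 to 507 against 751 to 952 FPKM. Of 6 fibroblast markers 1 was lower (16.7%), at 1303 to 1785 against 1928 to 2399 FPKM. For 7 general adipocyte markers the sums overlapped, at 30110.4 to 35740.4 against 25316 to 31564 FPKM, with 1 lower. Of the other lists, 2 of 7 endothelial markers and 1 of 2 tested erythroid markers were higher, 1 of 8 lymphocyte markers was lower, and none of 10 epithelial markers was called (summed level 164 to 355 against 274 to 403 FPKM). The part of these differences in the Slc25 values was not tested.

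RefSeq promoters, taken from 250 bases before to 50 after a start, were known for 33 of the 43 members. Some genes have several starts, so these members hold 42 promoters, with a median GC content of 59.3% against 52.7% over all 32851 promoters. A gene is counted below as holding a motif where any of its promoters does, for the members and for all 27025 genes alike. The GC box GGGCGG, on either strand, was held by all 7 higher members with a promoter, the 1 lower member and 18 of 20 members not called. It was held by 2 of the 5 untested members with a promoter and by 38.2% of all genes, which include genes not tested here. By promoter, it was in 35 of the 42 member promoters, against 35.7% of all promoters. CCAAT was found in 5 of the 7 higher members, 11 of the 20 not called and 2 of the 5 untested, but not in the lower member, against 41.1% of all genes. *Slc25a42* had 5 copies of CCAAT, which 0.271% of all promoters reach, and *Slc25a39* had 6 GC boxes, which 1.35% reach. In the windows printed above, these are the capitals CCAAT, or ATTGG on the other strand, of *Slc25a42* and, for 5 of the 6, the capitals GGGCGG, or CCGCCC on the other strand, of *Slc25a39*. The nuclear receptor half-site AGGTCA was in 4 of the 33 members with a promoter (*Slc25a39*, *Slc25a34*, *Slc25a47* and *Slc25a45*), against 18.1% of all genes, and is printed as TGACCT in *Slc25a39*. The cyclic AMP response element TGACGTCA was in *Slc25a25* and *Slc25a36*, against 2.03% of all genes. None of the 33 held TCAAGGTCA, an element bound by estrogen-related receptors that 0.466% of all genes hold and that contains AGGTCA. Likewise none held the ETS letters CCGGAAGT (4.31% of all genes), the homeodomain core TAATTA (6.12%) or the palindromic NRF1 site (1.07%). TAATTA is not the Hlx motif of the paper, which searched with a matrix of base preferences that was not used here. All motifs were searched on both strands, the motifs were chosen with the values known, and a match is a description of these letters and not of binding.

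The 8 members under the minimum were *Slc25a2*, *Slc25a13*, *Slc25a18*, *Slc25a21*, *Slc25a27*, *Slc25a31*, *Slc25a41* and *Slc25a43*. Their highest value in any mouse was 1.17 FPKM, for *Slc25a27* in transgenic mouse 3. *Slc25a18*, *Slc25a31* and *Slc25a41* were listed at 0 in some mice. The locus given for the ornithine carrier *Slc25a2* spans the protocadherin gene cluster, so that its values, at no more than 0.190 FPKM, do not belong to it alone. No difference between genotypes was tested for these 8.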

How the data were processed

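RNA-Seq values of iWAT from 3 transgenic and 3 wild-type mice were used. Per the labels, TruSeq reads were processed with CASAVA 1.8.2, TopHat2 2.0.9, Bowtie2 2.1.0 and Cufflinks 2.2.1 on mm10, and the authors deposited FPKM per gene locus. The annotation, and whether strand was used, are not given in the sources used here. FPKM is not a count, so no count test was run, and FPKM fixes no absolute depth. Locus starts, counted from 0 in the file, were raised by 1.

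The fit used log2(FPKM + 1) of 11692 loci, those whose mean passed 1 FPKM in either genotype or both, out of 19445. Genotypes were compared by a two-sided limma test without covariates (limma 3.58.1, R 4.3.3, moderated with a trend), and p-values were adjusted by Benjamini-Hochberg over all 11692. Single values were tested by exact permutation over mice. The limma procedure was tested on simulated data. Promoters were those of RefSeq (GRCm38.p6).

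The members, lists and motifs were chosen with earlier results of these data known. Values in every mouse are given for called members, the 6 most abundant members and, beyond this rule, some paralogues and members near a call. Other genes are *Hlx*, up to 6 of each list by adjusted p, those that overlap a member and, beyond this rule, some others of the lists. Some results that meet these rules are not reported here, although the counts include them. Alternatives were another pseudocount (0.1), other filters, scalings and weights, eBayes without trend, a replicate block, stricter calls and each mouse left out in turn.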

Additional observations from a re-analysis of the deposited data

How the results depend on the processing

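Against 12 higher members, 6 passed an adjusted p under 0.01, 3 passed with a 2-fold ratio added, and 7 to 13 were called with 1 mouse left out (7 without transgenic mouse 3). The other settings gave 10 to 15. Against 1 lower member, no filter, an adjusted p under 0.01 and a 2-fold ratio each gave 0, and leaving out 1 mouse gave 0 to 2. Other transporters were higher for 11, for 7 at an adjusted p under 0.01, for 3 with a 2-fold ratio and for 7 to 11 with 1 mouse left out (7 without wild-type mouse 3). They were lower for 2, for 1 without a filter, for 4 after quantile normalization, for 1 with the replicate block, for 0 at an adjusted p under 0.01 or with a 2-fold ratio, and for 0 to 2 with 1 mouse left out. The cause of these changes was not tested.

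Over 14 refits of 35 members, 440 of 490 log2 fold changes kept sign and call, 27 lost the call, 11 gained one and 12 changed sign. Of the 13 called members, 7 kept their call in all 14. Signs turned for *Slc25a3* (-0.18 after quantile normalization), *Slc25a5* (-0.25 after quantile normalization, -0.0077 without wild-type mouse 3), *Slc25a14* (-0.0124 without wild-type mouse 3), *Slc25a25* (0.0696 without transgenic mouse 3), *Slc25a38* (-0.0277 with quality weights, -0.0116 without transgenic mouse 1, -0.0548 without wild-type mouse 3), *Slc25a1* (0.0435 without transgenic mouse 3, 0.0147 without wild-type mouse 2) and *Slc25a37* (-0.0564 without transgenic mouse 3, -0.0609 without wild-type mouse 1). With 1 mouse left out, the ranges were -0.0077 to 0.1911 for *Slc25a5*, -0.0124 to 0.1639 for *Slc25a14*, -0.174 to 0.0696 for *Slc25a25*, -0.0548 to 0.1302 for *Slc25a38* and -0.0609 to 0.0646 for *Slc25a37*, and -0.1817 to 0.0435 for *Slc25a1*. None of these 7 was called in either sign.

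The replicate block gave 11 higher members and 1 lower, which was *Slc25a10* (adjusted p = 0.0397, limma) in place of *Slc25a24* (0.0707), and *Slc25a33* was lost (0.0542). Deviations of same-numbered mice correlated at 0.0129, 0.0344 and 0.0701, and 0 of 6 mice correlated best with their own number, so the numbers were not taken as pairs.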
